A study of Mus musculus with 64 samples.

Results

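The genes described here encode the subunits of the proteasome, its activators and its assembly chaperones, as RNA levels in the ventral tegmental area, a midbrain source of dopamine, of the mouse. Members were the gene symbols in the count table that begin with Psma, Psmb, Psmc, Psmd, Psme, Psmf or Psmg followed by a digit and that had a mean of at least 10 counts over the 64 libraries. Of 24421 symbols, 50 matched the naming pattern and 49 passed the count minimum. Psmb11, the beta subunit of the thymoproteasome, was left out, with a mean of 1.52 counts, at most 9 in a library and 0 in 26 libraries. The member nearest above the minimum was Psma8, the alpha subunit of the testis proteasome, with a mean of 15.1 counts. Psmc3ip matched the pattern but encodes a cofactor of meiotic recombination and is no proteasome subunit, and Psme2b is a near copy of Psme2, so reads may be split between that pair.

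Each library came from 1 adult male mouse of strain 129S1/Svlm, labelled either wildtype or Clock delta 19, a dominant-negative splice-site allele of the circadian gene Clock. Mice received valproate (VPA, a mood stabiliser that also inhibits histone deacetylases), ACY957 (which inhibits histone deacetylases of class I) or 1 of the 2 vehicles for 14 days. Bilateral 1 mm punches were collected at zeitgeber time 6, some 24 h past the final dose. The labels put 8 libraries in each drug group, VPA in wildtype, VPA in mutant, ACY957 in wildtype and ACY957 in mutant. Vehicle for VPA was given to 3 mice with the wildtype label and 13 with the mutant label, and vehicle for ACY957 to 5 and 11. The stated design gives 8 mice to every group, so some vehicle labels may be wrong. Wildtype labels ran over the lower mouse numbers and mutant labels over the higher, so the genotype label cannot be told apart from anything else that ran with mouse number.

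The proteasome degrades proteins tagged with ubiquitin. Its barrel-shaped 20S core stacks rings of alpha subunits, which gate the entrance, on rings of beta subunits, of which beta1 (Psmb6), beta2 (Psmb7) and beta5 (Psmb5) cut the substrate. The 19S cap recognises ubiquitin and unfolds the substrate, with ATPases (Psmc genes) and scaffold subunits in its base and a deubiquitinase (Psmd14) in its lid. In immune cells and under interferon the cutting subunits are replaced by Psmb9, Psmb10 and Psmb8, which form the immunoproteasome and shift the peptides made for antigen presentation.

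Library totals ran from 20.1 M to 37.5 M counts, with a median of 25.8 M. Th, the gene of tyrosine hydroxylase, which dopamine neurons need to make dopamine, lay under 8 log2 CPM in 4 libraries, 1 labelled wildtype and 3 labelled mutant, while the summed level of 10 dopamine neuron markers ran from 374 to 13360 CPM over all libraries. CPM here are counts scaled to the library's total over the genes tested, after TMM scaling (a correction for library composition). A score of clock output genes went against the genotype label in 13 libraries, 1 labelled wildtype and 12 labelled mutant. Mean Clock levels ran from 66.1 to 74.9 CPM over the groups, and since the allele alters splicing this level does not check the labels. In punches, fewer cells of a type and less RNA per cell cannot be told apart.

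Mutant ACY957 vehicle replicate 11 also stood apart. It read 34.3 CPM for Clock against 68.7 to 89.5 CPM in the 10 others of its group, and among the members it was lowest there for Psmc6, Psmd12 and Psme4 and highest for Psmb5 and Psmb10. Several values that rest on it are given with and without it, and values given once were computed with it.

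Levels per exon length, as RPKM (CPM per kilobase of exon, over the GENCODE M21 basic exons), set most constitutive subunits close together. Psmc5, an ATPase of the 19S base, was highest at 334 RPKM (SD 31.9, n = 64), ahead of the beta subunits Psmb6 at 265 RPKM (SD 24.7), Psmb4 at 234 RPKM (SD 22.1) and Psmb7 at 210 RPKM (SD 18.2). The SDs of Psmb6 and Psmb4 overlapped, and so did those of Psmb4 and Psmb7. Among the 31 members of the 20S alpha ring, the constitutive beta ring and the 19S base and lid other than Psma8, 25 lay within 2-fold of their median of 92.2 RPKM, and the lowest was the lid subunit Psmd11 at 12.97 RPKM. The highest of these 31 was 25.8 times the lowest. With all annotated exons in place of the basic set the same 2 genes stood at the ends, 52.4-fold apart, and the 2 orders of all 49 members had a Spearman correlation of 0.90.

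**Figure D1:**
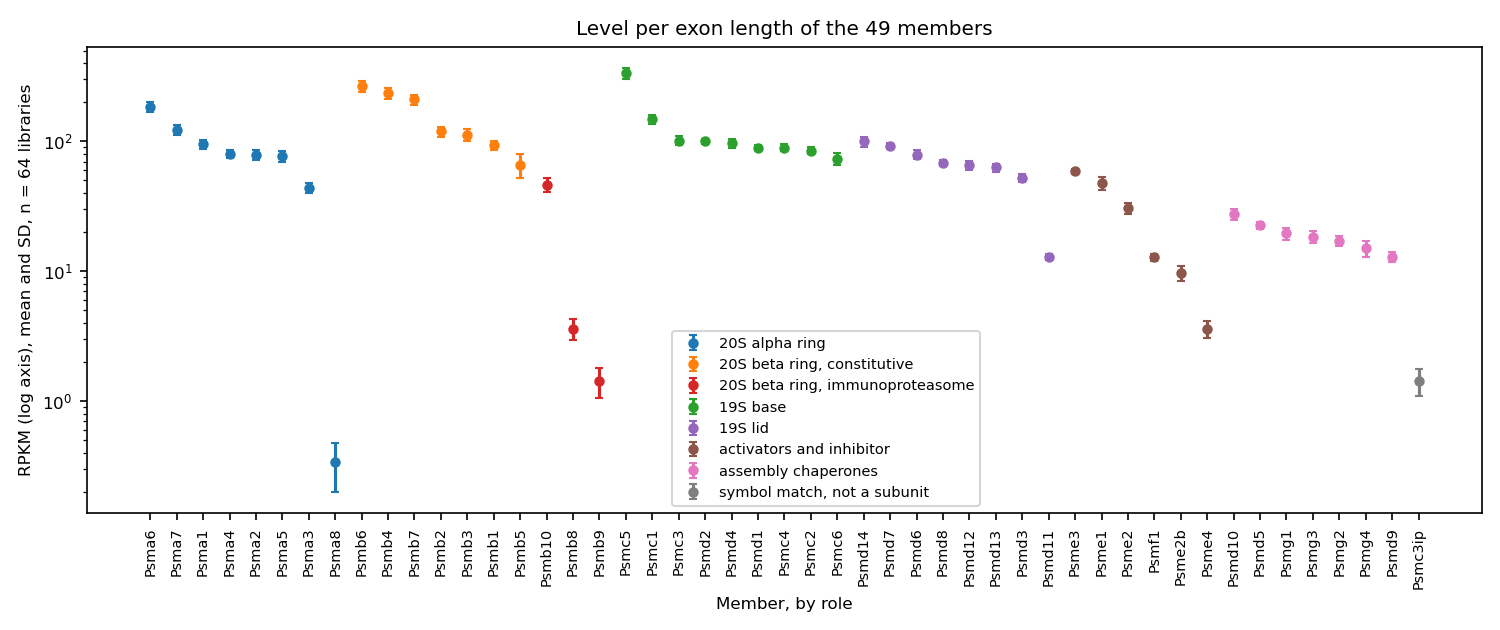
Each point is the mean RPKM of a member over 64 libraries with its SD, on a log axis, with members ordered by role and falling level. Most alpha, constitutive beta, 19S base and lid subunits lie near their median of 92.2 RPKM, while the assembly chaperones lie between 12.9 and 27.4 RPKM and Psma8 is lowest at 0.338 RPKM.

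Other roles sat lower. The 7 assembly chaperones, which put the rings and the cap together, ran from 12.9 RPKM (Psmd9) to 27.4 RPKM (Psmd10). Among the activators, Psme3 (the nuclear PA28 gamma) stood at 58.7 RPKM, Psme1 (PA28 alpha) at 47.7 RPKM, Psme2 (PA28 beta) at 30.7 RPKM and Psme4 (the large activator PA200) at 3.59 RPKM. Psmf1, the inhibitor PI31, stood at 12.8 RPKM. Psme3 was thus 16.4 times Psme4, a gap far beyond the SD of either (2.87 and 0.538 RPKM).

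Most members varied less between mice of a group than the median gene tested. The within-group SD of log2 CPM, pooled over the 8 groups, had a median of 0.11 over the members against 0.19 over the 15634 genes tested, and 34 of 49 members (69.4%) lay under the lower quartile of all genes tested, which holds 25% of them by definition. The genes tested were not matched to the members for count level, and the part of level in this difference was not tested. The steadiest were Psmd1 and Psmd2, the large scaffold subunits of the 19S base, each with a within-group SD of 0.06. Psmd1 ran from 249 to 302 CPM over all 64 libraries. The widest were Psma8 (0.68), Psmb9 (0.37) and Psmc3ip (0.30), all at low counts, and then Psmb5 (0.30), the chymotrypsin-like catalytic subunit, which was not low. Psmb5 ran from 35.3 to 84.1 CPM, a range of 2.38-fold, whereas the within-group SD of the other 6 constitutive beta subunits was between 0.11 and 0.15. The highest Psmb5 value was that of mutant ACY957 vehicle replicate 11, with 41.9 to 69.3 CPM in the 10 others of its group.

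Group means were correspondingly close. The highest of the 8 group means was a median of 1.14 times the lowest over the members, and this ratio was under 1.3 for 45 of 49. It was smallest for Psmd2, at 1.04. The exceptions were Psmc3ip (1.57), Psma8 (1.53), Psmb5 (1.43) and Psmb9 (1.31). In the 8 comparisons of single groups, a drug against its vehicle within a label or the labels within a treatment, none of the 392 pairs of member and comparison had groups whose CPM did not overlap, against 0.253% of such pairs over all genes tested.

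Fold changes were then tested over all 15634 genes with edgeR, and a gene was called at an adjusted p under 0.05. No member was called in any of the 14 comparisons, 686 tests in all, and the smallest adjusted p was 0.142. DESeq2 and limma voom each called 0 members in all 14 comparisons as well, against 0.393% and 0.18% of the tests over all genes. Of the 686 log2 fold changes 654 lay within 0.2 of zero, and 658 of the 95% intervals lay wholly within a 1.5-fold change in either direction. The wider intervals belonged to Psma8, Psmb5, Psmb8, Psmb9, Psmc3ip and Psme4. A p that misses the threshold does not show that levels were the same. For the other 43 members every interval lay within 1.5-fold. The intervals hold for single tests and are not adjusted for the 686, so larger changes are not excluded for all members at once. Between genotypes they describe the groups as labelled, and clock output went against the label in 13 libraries.

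**Figure D2:**
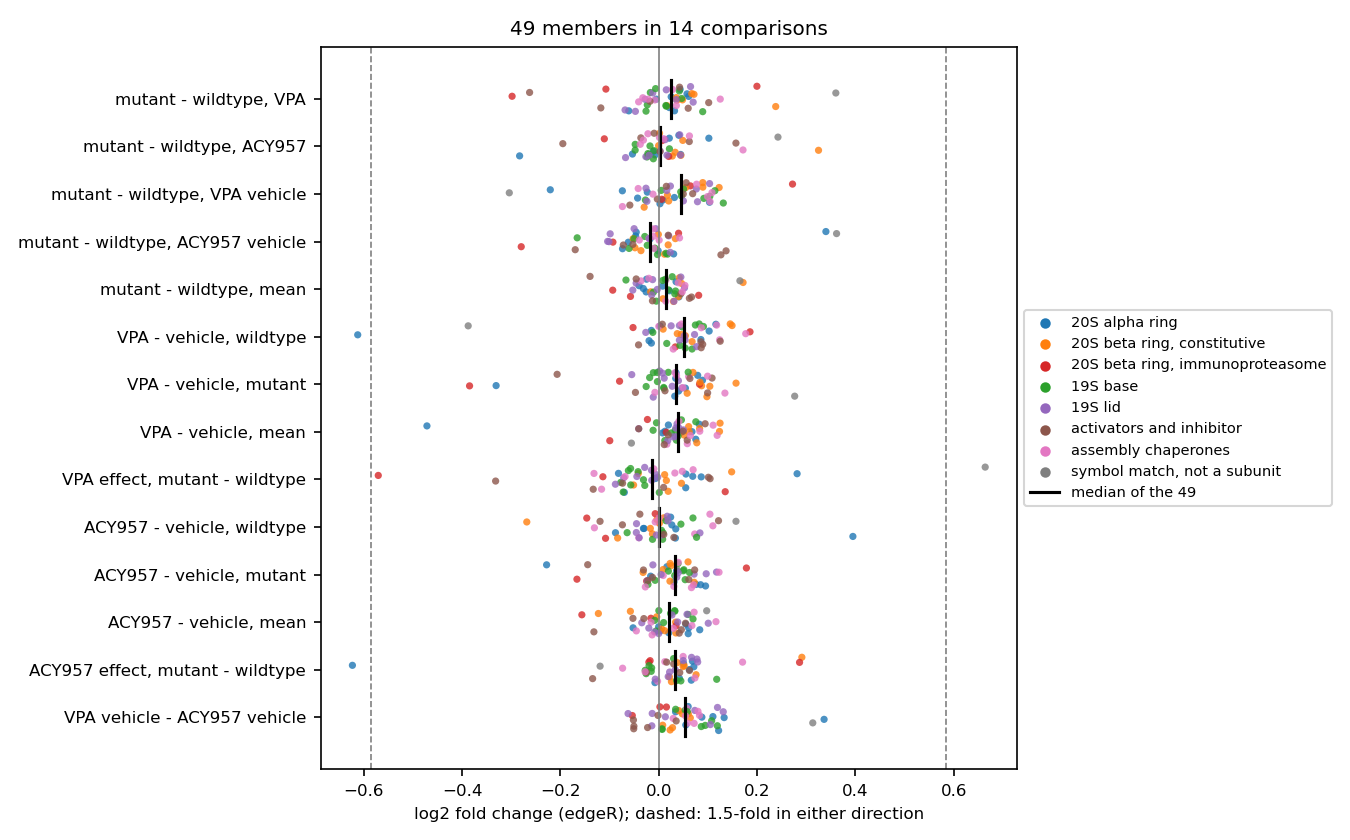
Each point is the edgeR log2 fold change of a member in 1 of 14 comparisons, coloured by role, with a black bar at the median of the 49. Dashed lines mark 1.5-fold, and most points lie within 0.2 of zero, with Psmc3ip, Psma8 and Psmb9 at the edges.

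Between the genotype labels, the question was whether proteasome RNA differs in Clock mutant mice. Under VPA 0 of 49 members were called, against 157 genes in all (1%), and 4 members (8.16%) had an unadjusted p under 0.05 against 15.7% of all genes. Those 4 were Psmb10 and Psmc3ip, with higher levels in mutant, and Psme4 and Psmf1, with lower levels. Under VPA 0 of 10 dopamine neuron markers lay above zero (median -0.63), and 3 of 4 hypothalamic peptide genes were called higher (median 3.10). Above zero lay 7 of 8 endothelial (0.12, 1 called), 7 of 8 astrocyte (0.20) and 1 of 8 microglia markers (-0.19). For neurons it was 3 of 8 (-0.02) and for oligodendrocytes 4 of 8 (0.01). Under ACY957 0 members were called against 0% of all genes, and 2 members (4.08%) had an unadjusted p under 0.05 against 4.84%. In the VPA vehicle groups the called counts were 0 members against 0.0064% of genes, and 0 members had an unadjusted p under 0.05 against 5.15%. In the ACY957 vehicle groups they were 0 members against 0.0128%, and 3 members (6.12%) against 3.61% at an unadjusted p under 0.05. Without mutant ACY957 vehicle replicate 11 the latter became 1 member (2.04%) against 3.35%, and the members with a fold change above zero became 7 in place of 16. Averaged over the 4 treatments, 0 members were called against 1.61% of all genes, and 4 members (8.16%) had an unadjusted p under 0.05 against 14.4%. Without mutant ACY957 vehicle replicate 11 the latter became 3 members (6.12%) against 14.1%. With all libraries, the median log2 fold change of mutant minus wildtype in that average was 0.01 over the members and 0.00 over all genes. There 0 of 8 microglia markers lay above zero (median -0.17, 5 called) and 0 of 10 dopamine neuron markers (-0.16). Above zero lay 7 of 8 astrocyte (0.08) and 6 of 8 endothelial markers (0.01, 1 called) and 4 of 4 hypothalamic peptide genes (0.89, 1 called). For neurons it was 3 of 8 (-0.02) and for oligodendrocytes 4 of 8 (-0.002). Single treatments differed in direction for some lists. Of the dopamine neuron markers, 10 of 10 lay above zero under ACY957 (0.27), 0 of 10 in the VPA vehicle (-0.40) and 5 of 10 in the ACY957 vehicle (0.02). Of the oligodendrocyte markers it was 0 of 8 (-0.18), 8 of 8 (0.17) and 5 of 8 (0.03). The part of these cell types in the members' values was not tested for any genotype comparison. The member shares at an unadjusted p were below those of all genes in 4 of these 5 comparisons. In the ACY957 vehicle groups the share was above it, and the order turned without mutant ACY957 vehicle replicate 11. Each share rests on 4 members or fewer, and the members vary together, so no difference from all genes is read from these shares.

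VPA against its vehicle left the members uncalled too. In wildtype 0 members were called against 0.0256% of all genes, and 1 member (2.04%) had an unadjusted p under 0.05 against 4.27%. In mutant 0 members were called against 0.0576%, and 4 members (8.16%) against 12.6% had an unadjusted p under 0.05. Averaged over both labels the shares were 0 members against 0.0704% called, and 3 members (6.12%) against 10.4% at an unadjusted p under 0.05. Estimated changes were above zero for 41 of 49 members in that average, with a median of 0.04 on the log2 scale against 0.00 over all genes. Without the 4 libraries with low Th they were above zero for 45 of 49, and 5 members (10.2%) had an unadjusted p under 0.05 against 10.8%. In the same average 0 of 8 neuron markers (median -0.09), 0 of 10 dopamine neuron markers (-0.17) and 2 of 8 oligodendrocyte markers (-0.17) lay above zero, while all 4 hypothalamic peptide genes did (median 1.91, 2 of them called). Above zero also lay 3 of 8 astrocyte markers (-0.05), 2 of 8 microglia markers (-0.09) and 2 of 8 endothelial markers (-0.04). Of these, the astrocyte marker Aqp4 was called lower (adjusted p 0.0392). The part of these cell types in the members' values was not tested. Genes with short transcripts had a like median: it was 0.04 over the 2093 genes tested with under 2000 bases over all annotated exons and -0.03 over the 4635 genes with over 6000. The part of transcript length in the members' median was not tested. The core members had a median exon length of 2804 bases against 4338 over all genes tested.

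ACY957 against its vehicle gave 0 called members in wildtype against 0.0064% of all genes, and 0 members had an unadjusted p under 0.05 against 3.32%. In mutant 0 members were called against 0.0064%, and 3 members (6.12%) had an unadjusted p under 0.05 against 6.31%. In the average over both labels 0 members were called against 0.0256%, and 3 members (6.12%) against 8.19% had an unadjusted p under 0.05. These were Psmb10, with lower levels under ACY957, and the assembly chaperone Psmd9 and the lid subunit Psmd12, with higher levels. Without mutant ACY957 vehicle replicate 11 there were 5 such members (10.2%) against 8.56% in the average, and 4 (8.16%) against 6.56% in mutant. With all libraries, 0 of 8 oligodendrocyte markers lay above zero in that average (median -0.18). For dopamine neurons it was 1 of 10 (-0.08), for microglia 1 of 8 (-0.08) and for endothelium 3 of 8 (-0.01). For neurons it was 5 of 8 (0.01), for astrocytes 6 of 8 (0.04) and for hypothalamic peptides 3 of 4 (0.31). The part of these cell types was not tested.

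The vehicles of the 2 drugs, averaged over both labels, gave the most members with an unadjusted p under 0.05: 10 of 49 (20.4%) against 13.8% of all genes, all 10 with higher levels under the VPA vehicle. Called members were 0 against 0.154% of genes. The smallest p belonged to Psmd6, a subunit of the 19S lid. In the VPA vehicle groups Psmd6 read 99.5, 118 and 127 CPM in the 3 libraries labelled wildtype and ran from 102 to 126 CPM, with a median of 112, in the 13 labelled mutant. In the ACY957 vehicle groups it ran from 103 to 117 CPM (median 108, n = 5) and from 92.0 to 116 CPM (median 98.4, n = 11). The groups overlapped within both labels. The log2 fold change was 0.12 (SE 0.04), with an adjusted p of 0.142. The other 9 were Psma3, Psmd14, Psmc1, Psma5, Psmc3ip, Psma6, Psmd12, Psmc5 and Psmc6, with log2 fold changes from 0.09 (Psmc1) to 0.31 (Psmc3ip). The median over all members was 0.05 against 0.00 over all genes, and over short and long transcripts it was 0.02 and -0.02. Without mutant ACY957 vehicle replicate 11 there were 11 such members (22.4%) against 14.2% of all genes, and Psmc6 was not among them. Of the markers, 0 of 10 for dopamine neurons (median -0.14), 7 of 8 for oligodendrocytes (0.10) and 7 of 8 for microglia (0.08) lay above zero. For astrocytes it was 7 of 8 (0.07), for endothelium 4 of 8 (0.03), for neurons 2 of 8 (-0.05) and for hypothalamic peptides 2 of 4 (-0.16). The part of these cell types in the members' values was not tested. Vehicle groups are those whose label counts depart from the design.

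Whether a drug effect differed between the labels was tested by the interaction. For VPA 0 members were called against 0.0064% of all genes, and 1 member (2.04%) had an unadjusted p under 0.05 against 2.84%. For ACY957 0 members were called against 0% of genes, and 0 had an unadjusted p under 0.05 against 1.84%. The 1 member was Psmc3ip, the gene that is not a subunit. Psmc3ip read 2.00, 2.07 and 2.72 CPM in the wildtype VPA vehicle and ran from 1.28 to 2.23 CPM (median 1.73) in wildtype VPA, from 1.07 to 2.79 CPM (median 1.81) in the mutant VPA vehicle and from 1.84 to 2.75 CPM (median 2.18) in mutant VPA. Its estimated VPA effect was therefore negative in wildtype and positive in mutant, with overlapping groups in both. The interaction was 0.66 on the log2 scale (SE 0.25) with an adjusted p of 1.00.

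By role, no alpha subunit had the smallest p in any comparison. Psma2, the alpha subunit with the most reads, had group medians between 213 CPM (mutant ACY957 vehicle) and 244 CPM (wildtype VPA), and its lowest and highest libraries stood at 185 and 269 CPM. VPA minus vehicle was 0.07 (SE 0.05, adjusted p 0.622) on average over both labels. Psma8 was near the floor: it ran from 0 to 1.18 CPM over the libraries, with 1 group's lowest library at 0. Its widest 95% interval, for the VPA interaction, ran from -0.78 to 1.35 on the log2 scale. That interval holds changes of more than 1.5-fold in both directions.

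In the constitutive beta ring, Psmb1, a non-catalytic subunit, had the most reads. It ran from 310 to 346 CPM in wildtype VPA and 277 to 358 CPM in the wildtype VPA vehicle, and from 316 to 385 CPM in mutant VPA against 271 to 348 CPM in the mutant VPA vehicle. These ranges overlapped in both labels, and the average VPA effect was 0.08 (SE 0.05, adjusted p 0.559). Psmb4, another non-catalytic subunit, had the smallest p under VPA. Its medians were 287 CPM in wildtype VPA against 256 CPM in the vehicle, and 299 CPM in mutant VPA against 284 CPM in the vehicle. The average difference was 0.12 on the log2 scale (SE 0.05), with an adjusted p of 0.375.

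Psmb5 had the smallest p between the labels under ACY957. In wildtype ACY957 it ran from 35.3 to 77.5 CPM with a median of 43.98, and in mutant ACY957 from 40.5 to 74.8 CPM with a median of 57.3. In the ACY957 vehicle it ran from 45.4 to 71.7 CPM (median 58.5) in wildtype and from 41.9 to 84.1 CPM (median 58.1) in mutant. The wildtype ACY957 group thus had the lowest median while a single library there, at 77.5 CPM, exceeded every mutant ACY957 library. The log2 fold change of mutant over wildtype under ACY957 was 0.33 (SE 0.14, adjusted p 0.99), and that averaged over treatments was 0.17 (SE 0.08, adjusted p 0.301).

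The immunoproteasome subunits differed widely in level. Psmb10, which replaces Psmb7, stood at 60.8 CPM (SD 7.27), whereas Psmb8, which replaces Psmb5, stood at 5.90 CPM (SD 1.05) and Psmb9, which replaces Psmb6, at 1.93 CPM (SD 0.499, n = 64 each). As shares of the RPKM of each pair, Psmb9 made up 0.536% of the beta1 pair (0.270% to 0.787% over the libraries), Psmb8 5.39% of the beta5 pair (3.10% to 8.27%) and Psmb10 18.1% of the beta2 pair (13.9% to 21.7%). With all annotated exons as the length these means became 0.465%, 2.67% and 33.3%, so that the last 2 shares depend on the exon set by more than 1.5 times while their order does not. Exons of Psmb9 overlap those of Tap1 on the opposite strand by 212 bases, and those of Psmb7 overlap Nek6 by 405 bases.

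**Figure D3:**
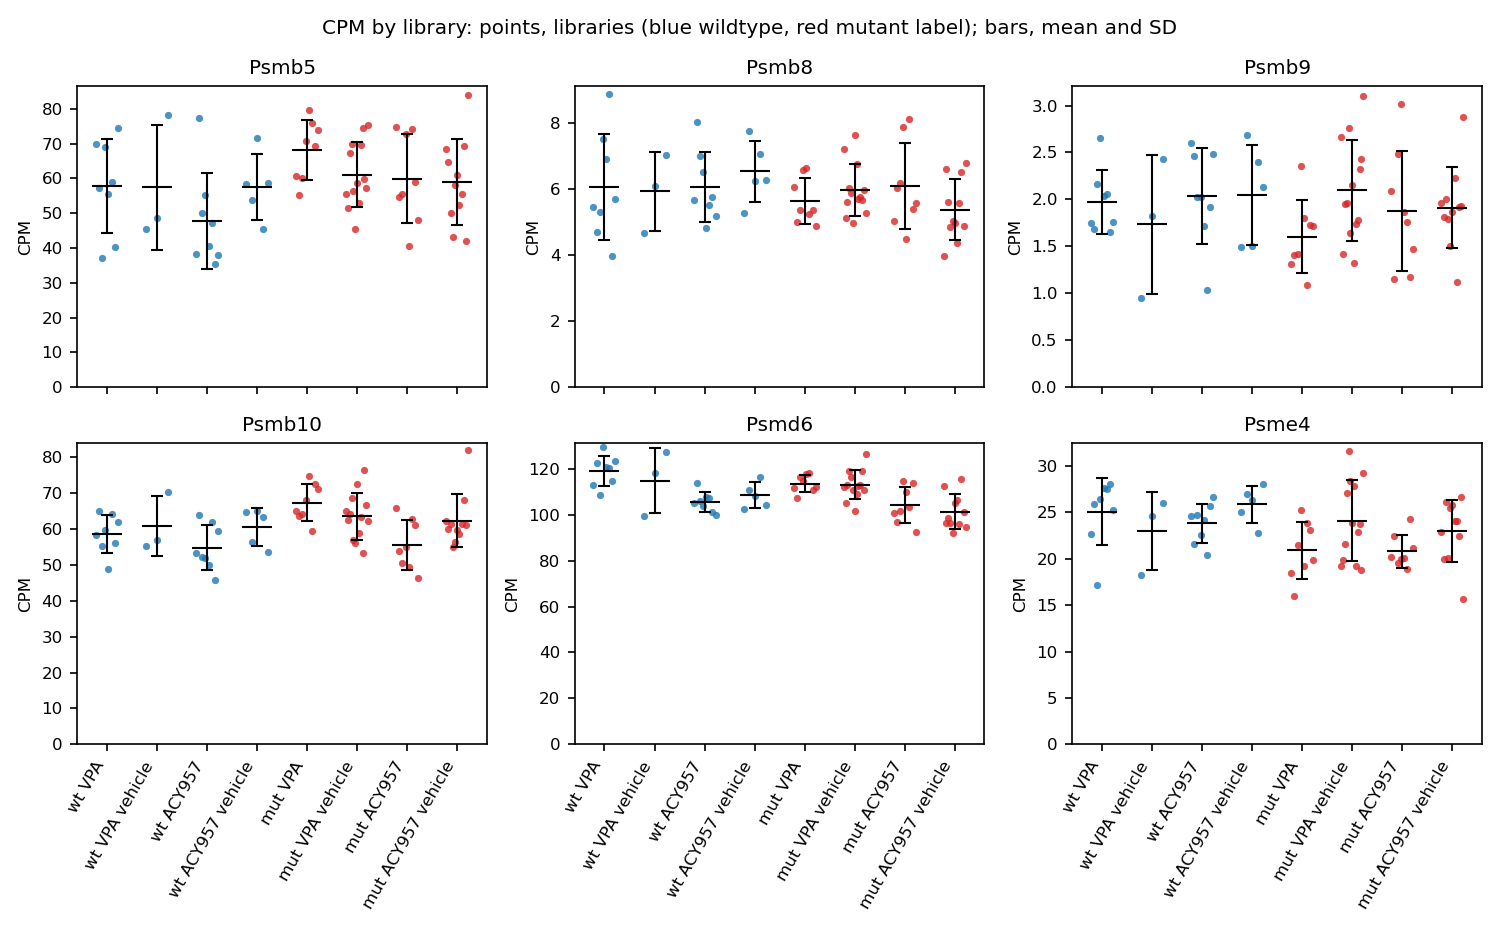
CPM of 6 members in every library by group (blue, wildtype label; red, mutant label), with the group mean and SD as black bars and axes from 0. Psmb5 spreads widely within groups, the Psmb10 means are lower under ACY957 than under its vehicle, and the groups compared overlap.

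Psmb10 read lower under ACY957 than under its vehicle in both labels without being called. In wildtype ACY957 it ran from 45.95 to 63.95 CPM (median 52.9) against 53.6 to 65.1 CPM (median 63.5) in the vehicle. In mutant ACY957 it ran from 46.5 to 65.8 CPM (median 54.4) against 55.1 to 82.2 CPM (median 61.2). Both pairs overlapped. The average log2 fold change was -0.16 (SE 0.06) with an adjusted p of 0.39, from -0.15 (SE 0.09) in wildtype and -0.17 (SE 0.07, adjusted p 0.651) in mutant. The highest vehicle value was that of mutant replicate 11, without which the mutant difference was -0.12 (SE 0.07, adjusted p 0.818) and the average -0.13 (SE 0.05, adjusted p 0.404). Psmb10 was also the member with the smallest p between the labels under VPA: it ran from 48.8 to 65.0 CPM (median 59.1) in wildtype and from 59.5 to 74.8 CPM (median 66.6) in mutant, which gives 0.20 on the log2 scale (SE 0.07, adjusted p 0.17).

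Psmb9 and Psmb8 gave no call either. Psmb9 ran from 1.09 to 2.36 CPM (median 1.57) in mutant VPA against 1.33 to 3.10 CPM (median 1.96) in the vehicle, or -0.38 on the log2 scale (SE 0.17, adjusted p 0.343). In wildtype the same contrast was 0.19 (SE 0.26), and the interaction of -0.57 (SE 0.31) had an adjusted p of 1.00. Psmb8 in the ACY957 vehicle ran from 5.28 to 7.76 CPM (median 6.28) in wildtype and from 3.97 to 6.78 CPM (median 5.02) in mutant, or -0.28 on the log2 scale (SE 0.14, adjusted p 0.999). Under ACY957 itself the difference between the labels was 0.01 (SE 0.13).

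In the 19S base, Psmc5 had group medians from 411 CPM (wildtype ACY957) to 469 CPM (mutant VPA vehicle), and its libraries ran from 353 to 542 CPM. The average genotype difference was 0.03 (SE 0.03, adjusted p 0.693). Psmc1 and Psmc6, ATPases of the same ring, had the smallest p between the labels in the VPA vehicle and the ACY957 vehicle. Psmc6 ran from 162 to 182 CPM (median 169) in the wildtype ACY957 vehicle and from 96.7 to 177 CPM (median 157) in the mutant one, or -0.17 on the log2 scale (SE 0.07, adjusted p 0.999). The lowest value was that of replicate 11, with 140 to 177 CPM in the 10 others, and without it the difference was -0.11 (SE 0.06, adjusted p 1.00) and Psmb8 had the smallest p. In the lid, Psmd12 had the most reads. It ran from 159 to 182 CPM (median 166) in the wildtype ACY957 vehicle and 165 to 197 CPM (median 179) under the drug, and from 127 to 180 CPM (median 156) and 148 to 200 CPM (median 169) in mutant. The average ACY957 difference was 0.10 (SE 0.04, adjusted p 0.482), and 0.09 (SE 0.04, adjusted p 0.488) without mutant vehicle replicate 11, the lowest at 127 CPM.

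Among the activators, Psme3 ran from 132 to 176 CPM with group medians between 152 and 159 CPM, and its genotype difference averaged -0.01 (SE 0.02, adjusted p 0.836). Psme4 was the member with the smallest p in the average over genotype labels. Under VPA it ran from 17.1 to 28.1 CPM (median 26.2) in wildtype and from 15.98 to 25.3 CPM (median 20.6) in mutant, and under ACY957 from 20.5 to 26.7 CPM (median 24.4) and from 18.9 to 24.3 CPM (median 20.2). Medians were lower in mutant in both drug groups, with overlap in both. The difference was -0.26 (SE 0.10, adjusted p 0.185) under VPA, -0.20 (SE 0.10) under ACY957, 0.07 (SE 0.13) in the VPA vehicle and -0.17 (SE 0.11) in the ACY957 vehicle, and -0.14 (SE 0.06, adjusted p 0.212) on average. Without mutant ACY957 vehicle replicate 11 it was -0.12 (SE 0.10) in the ACY957 vehicle and -0.13 (SE 0.05, adjusted p 0.234) on average. VPA against its vehicle in mutant gave -0.21 (SE 0.09, adjusted p 0.336), a difference that was near 0 (0.0011) without the libraries whose clock output went against the label. Without wildtype VPA replicate 3 the difference under VPA was called with an adjusted p of 0.0486 in edgeR. This was the only call of a member in any of the repeats that left out 1 library. That replicate was 1 of the 4 libraries with low Th and the lowest Psme4 value of its group at 17.1 CPM. Mutant VPA replicate 2, also low in Th, held the lowest value of its own group, 15.98 CPM. Without all 4 libraries with low Th, 0 members were called in this comparison. With all libraries, 1% of all genes were called in it. Psme4 and the neuron marker list moved together over the libraries, as given below.

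The assembly chaperones also stayed near zero. Psmd5, which holds the ATPase ring during assembly, had group medians from 95.1 to 106 CPM and ran from 85.5 to 113 CPM over the libraries. Psmd10 (gankyrin), a chaperone of the same step, had the smallest p under VPA in wildtype: it ran from 38.6 to 44.4 CPM (median 43.6) under the drug and read 33.6, 36.9 and 43.6 CPM in the vehicle, or 0.18 on the log2 scale (SE 0.08, adjusted p 1.00). In mutant the same contrast was 0.06 (SE 0.05).

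Other genes of ubiquitin and proteasome function gave the same count. Of 31 tested genes for proteasome-bound factors, ubiquitin, its activating enzymes and the transcription factors Nfe2l1 and Nfe2l2, 0 were called in each of the 14 edgeR comparisons. The smallest adjusted p was 0.0893, for Nfe2l2, in the average over genotype labels. None of 10 tested genes of antigen presentation was called in any comparison. Under VPA their fold changes lay above zero for 0 of 10 in mutant (median -0.05, smallest adjusted p 0.448, Irf1), for 7 of 10 in wildtype (median 0.06) and for 5 of 10 in the average (median 0.01).

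The members varied together between mice after group means were removed. Over the 64 libraries the 496 pairs of the 32 core members (20S alpha, constitutive beta, 19S base and lid) had a median Pearson correlation of 0.47, from -0.30 to 0.90, as a description without a test. The highest were Psma7 with Psmb6 (r = 0.90) and Psmb3 with Psmb6 (r = 0.90), all subunits of the 20S core, and the lowest was Psmd11 with Psmd14 (r = -0.30), both of the 19S lid. Leaving Psma8 aside, the median was 0.72 within the constitutive beta ring (21 pairs), 0.65 within the alpha ring (21 pairs), 0.52 within the 19S base (36 pairs) and 0.22 within the lid (28 pairs), and 0.56 between alpha and beta subunits (49 pairs). All these values share the libraries, their depth and their scaling.

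**Figure D4:**
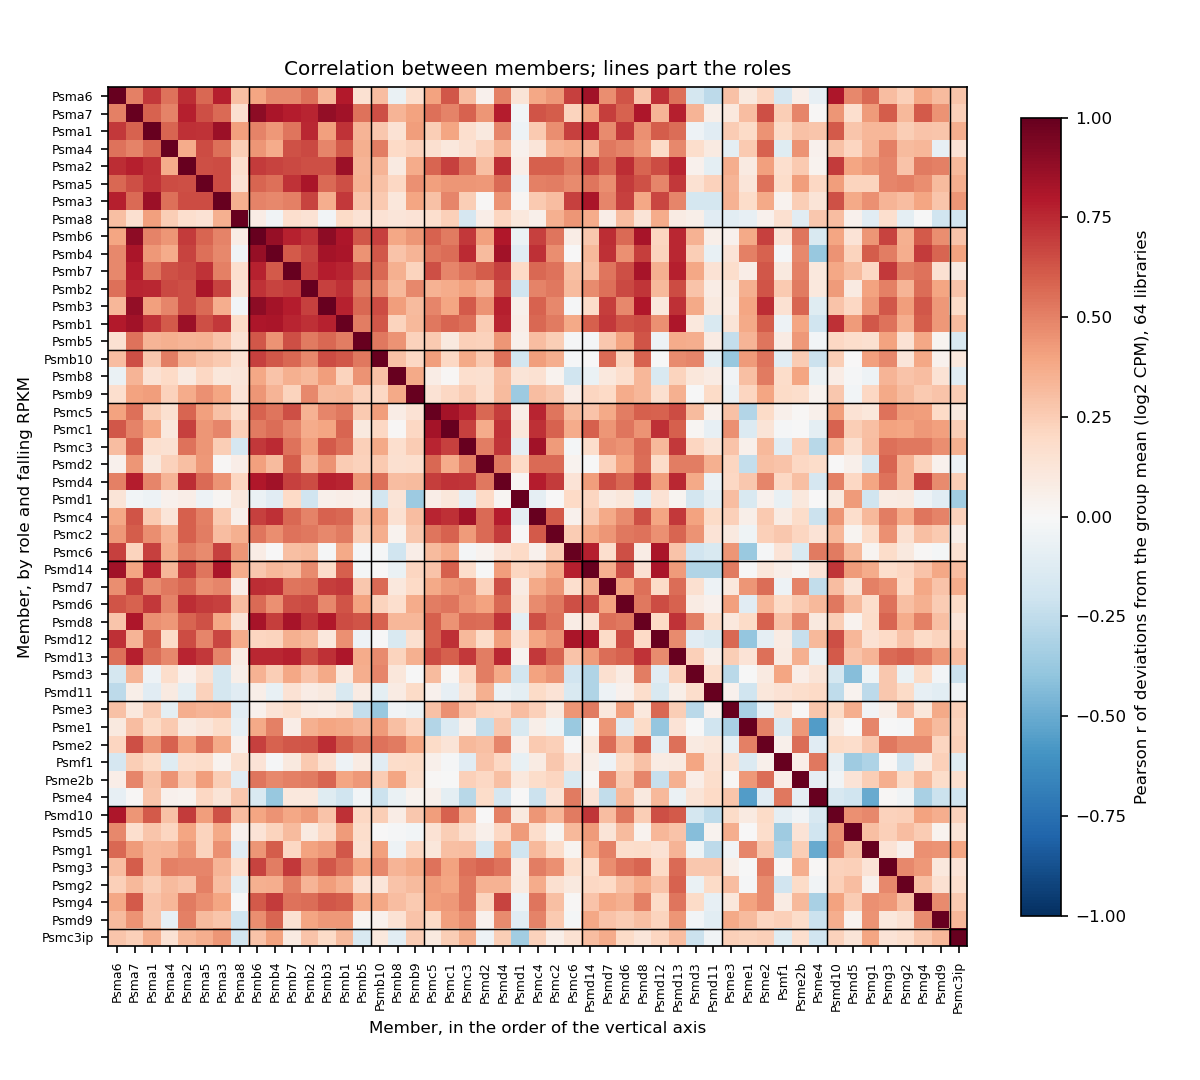
Pearson correlations between the 49 members over 64 libraries, from log2 CPM minus the group mean, with members in order of role and falling RPKM and black lines between roles. The constitutive beta block has a median of 0.72 and the lid block a median of 0.22, and Psmd1, Psmd11 and Psme4 stand out as pale rows.

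Against the mean of the core members, 32 of 49 members had r above 0.5, compared with 7.02% of all genes tested. Core members are part of that mean. Psmc6 (0.52) and Psmb5 (0.55) are counted in the 32 but fell to 0.47 and 0.46 when left out of it. With each left out of its own mean, r was 0.85 for Psmb1, 0.83 for Psma7, 0.82 for Psmb7, 0.81 for Psmd4 and 0.80 for Psma2. It was -0.02 for Psmd11, 0.06 for Psmd1 and 0.24 for Psmd3, all in the 19S cap, and 0.46 for Psmb5. Among genes outside the core, Psmg3 (r = 0.64), Psmd10 (0.63), Psmb10 (0.55) and Psme2 (0.54) followed the mean, whereas Psme4 (0.11), Psme1 (0.13) and the inhibitor Psmf1 (0.18) did not. The core mean itself spread little, from -0.17 (mutant VPA replicate 2, a library with low Th) to 0.17 (wildtype VPA vehicle replicate 3) on the log2 scale.

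The 10 genes outside the family whose levels were most like the core mean over the 64 libraries were Sdhb (r = 0.91), Atp5c1 (0.89), Mrpl13 (0.88), Ndufb5 (0.86), Atp5o (0.85), Uqcrfs1 (0.85), Ndufs4 (0.85), Rbx1 (0.84), Sdhd (0.84) and Parl (0.83). Rbx1 encodes the RING subunit of cullin ubiquitin ligases, and Sdhb and Sdhd encode subunits of succinate dehydrogenase. Without Psma8 in the core mean the 10 had r between 0.84 and 0.91, and 6 of them remained among the 10 most alike. Among the least alike were Arhgef12 (r = -0.85) and Zc3h7b (-0.85). The 100 most alike genes had a median length of 1981 bases over all annotated exons and the 100 least alike 10100 bases, against 4338 over all genes tested. The core mean also followed the mean of short genes minus that of long genes in each library (r = 0.77, Spearman 0.78, r = 0.77 without the 2 libraries farthest from the median, n = 64). The part of transcript length in the members' covariation was not tested.

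Of the 31 other pathway genes, 3 (9.68%) had r above 0.5 with the core mean, a share near the 7.02% of all genes tested. They were Pomp (0.80), the chaperone that matures the beta subunits, Shfm1 (0.67), which encodes the small cap subunit Sem1, and Rps27a (0.63), which encodes ubiquitin fused to a ribosomal protein. Nfe2l1, the transcription factor known to raise proteasome genes when the proteasome is inhibited, had r = -0.28, and Nfe2l2 had -0.16.

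Nfe2l1 and Nfe2l2 bind the antioxidant response element, so sequences upstream of RefSeq starts of members are shown for its core, TGACNNNGC, searched on both strands. RefSeq promoter windows on GRCm38.p6, from 250 bases before to 50 after each start, covered 41 of the 49 members in 44 windows. The core lay in the windows of 6 members (13.6% of the member windows), Psmb5, Psmb6, Psmc6, Psmd12, Psmd9 and Psme4, against 12.4% of all 32851 windows. The GC box GGGCGG lay in 54.5% of the member windows against 35.7% of all, CCAAT in 31.8% against 37.4% and TATAAA in 9.09% against 13.6%. A match of these letters is a description of the sequence, not a binding site. The catalytic pair Psmb6 and Psmb5 is printed because the former followed the core mean (r = 0.78 without itself) and the latter less so (0.46). The stretches, 5′ to 3′ on the strand of the gene, are chr11:70525107-70525356 (plus strand, Psmb6) and chr14:54618023-54618245 (minus strand, Psmb5), with the antioxidant response core and, in Psmb6, a GC box on the other strand in capitals.

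Psmb6: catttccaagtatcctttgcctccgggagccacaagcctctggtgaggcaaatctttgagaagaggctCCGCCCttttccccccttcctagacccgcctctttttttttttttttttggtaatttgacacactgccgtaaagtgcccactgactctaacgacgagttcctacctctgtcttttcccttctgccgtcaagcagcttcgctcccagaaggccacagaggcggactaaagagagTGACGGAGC
Psmb5: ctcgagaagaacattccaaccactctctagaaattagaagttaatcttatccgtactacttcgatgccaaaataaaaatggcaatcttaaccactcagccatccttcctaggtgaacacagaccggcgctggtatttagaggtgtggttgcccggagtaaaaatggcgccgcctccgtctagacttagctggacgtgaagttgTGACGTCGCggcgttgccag

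Both genes hold the core close to the RefSeq start, 9 bases before it in Psmb6 and 47 bases before it in Psmb5. The RefSeq start of Psmb5 lies inside the gene as GENCODE places it, and the printed stretch ends where the GENCODE gene begins. The same core is shown in capitals for the ATPase Psmc6 (chr14:45329587-45329615, plus strand, reverse strand match) and the chaperone Psmd9 (chr5:123228149-123228177, plus strand), whose r with the core mean was 0.47 without itself and 0.31. The Psmd9 stretch lies before a RefSeq start but inside the gene as GENCODE places it (chr5:123169413-123250131).

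Psmc6: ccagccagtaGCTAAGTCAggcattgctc
Psmd9: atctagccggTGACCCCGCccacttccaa

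The 4 genes share the core and differ in how far they followed the other subunits. They are a choice among the 6 members with a match, and the part of this sequence in the covariation was not tested.

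Of the immunoproteasome and activator genes, Psmb10 (r = 0.55) and Psme2 (0.54) followed the core mean. Psmb8 (0.28), Psmb9 (0.39), Psme1 (0.13) and Psme4 (0.11) followed it less. Over the 64 libraries Psmb8 was most like Tap2, a peptide transporter of antigen presentation that neighbours it (r = 0.65), and it followed the list of 10 antigen presentation genes (r = 0.65, Spearman 0.64) and the microglia markers (0.48). Psmb9 followed the same lists (0.43 and 0.43) and was most like Bst2 (0.61), an interferon-induced gene, and Psmb8 and Psmb9 had r = 0.38 with each other. Psmb10 was most like Ubl5 (0.84), which encodes a ubiquitin-like protein, and had 0.16 with the antigen presentation list and 0.20 with the microglia markers. The summed level of the 8 microglia markers ran from 449 to 742 CPM over the libraries and no marker was at 0 throughout. The part of microglia in Psmb8 and Psmb9 levels was not tested.

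Psme1 and Psme4, both activators, had correlations of opposite sign with the list of neuron markers. Psme1 had r = -0.66 with the list of 8 (Spearman -0.70, -0.60 without the 2 libraries farthest from the median) and was most like Syt5 (0.90), Nsg2 (0.87) and Ly6h (0.87). Those 3 are themselves known as genes of neurons, so the list and these genes went opposite ways with Psme1. Psme4 had r = 0.58 (Spearman 0.57, 0.53 without those 2). The summed neuron markers ran from 5738 to 8722 CPM, with group medians from 6659 CPM (mutant VPA) to 7629 CPM (wildtype ACY957 vehicle), none of the 8 was at 0 throughout, and their part in the Psme4 and Psme1 values was not tested. Psme1 and Psme2, which form 1 ring together, had r = 0.51, and Psme2 with its near copy Psme2b had 0.56.

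Psmb5 (chr14:54614119-54618022, minus strand) stood apart from its ring in another way, noticed after its values were seen. Of 15633 other genes tested over the 64 libraries, the gene with the lowest correlation to Psmb5 was Gm10364 (r = -0.72, Spearman -0.71, r = -0.71 without the 2 libraries farthest from the median), a predicted gene that lies 420 kb away on the same chromosome. The correlation was negative in 8 of 8 groups. Since the gene was picked as the lowest over these same libraries, that count is no separate support. Within 500 kb of Psmb5, 32 genes were tested, of which 17 had a negative and 15 a positive correlation with it. The highest were Prmt5 (r = 0.64), an arginine methyltransferase, and Mrpl52 (0.60), a mitochondrial ribosomal protein. A negative one, Myh6, the cardiac alpha myosin heavy chain 324 kb away, had 5 reads or fewer in 28 libraries and 9 to 71 reads in 36, so that no pooled correlation is given for it. Its correlation with Psmb5 was negative in 8 of 8 groups as well, and Myh6 too was picked from these same libraries. Exons of Psmb5 also hold the microRNA gene Mir686 (109 bases, same strand).

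**Figure D5:**
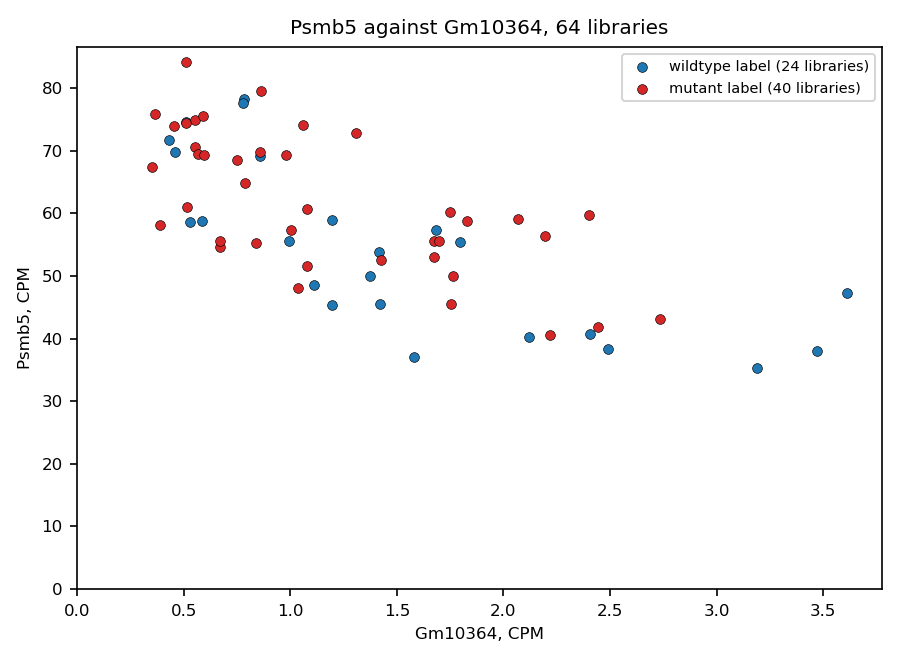
Psmb5 CPM against Gm10364 CPM in 64 libraries, coloured by genotype label, with both axes from 0. Libraries with the highest Gm10364 have Psmb5 near the lower end of its range of 35.3 to 84.1 CPM, in both labels.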

How the data were processed

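RNA from ventral tegmental area punches of 64 mice was read from a stranded poly(A) library kit. The deposited file holds raw counts per gene symbol, with no normalization by the authors, per the file headers and values. Per the labels' series text, reads were aligned to mm10 with TopHat2 2.0.9 and counted with HTSeq 0.6.1 in union mode, while the submitters' processing notes name Trimmomatic, HISAT2 and HTSeq. The strand setting of counting is not given in the sources used here, so reads of overlapping genes on opposite strands cannot be told apart.

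Counts were tested with edgeR 4.0.16 in R 4.3.3 (TMM, filterByExpr, quasi-likelihood F test, 1 mean for each of 8 groups over 64 libraries), with Benjamini-Hochberg adjustment over 15634 genes in each comparison and a threshold of 0.05. Standard errors (SE) were taken from the F statistic as |log2 fold change| / sqrt(F). Alternatives were RLE scaling, DESeq2 1.42.0, limma voom 3.58.1, no filter, the compared groups alone, 3 sets of libraries left out, and each library left out. Correlations used log2 CPM (prior count 2) minus group means. RPKM used GENCODE M21 basic exons, chosen with both exon sets seen, and the core mean without Psma8 and the counts without mutant ACY957 vehicle replicate 11 or without the libraries with low Th were added after seeing the data. Of 24421 symbols 23376 matched GENCODE M21.

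The members, gene lists and tests were chosen with earlier results of these data known. Genes were named by rule: the smallest p per comparison, Psmb8, Psmb9 and Psmb10, the highest CPM per role, the ends of the RPKM order, and the 10 genes most like the core mean. Other members named, and the genes most like single members, were chosen after values were seen. A gene among those least like the core mean is not reported here.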

Additional observations from a re-analysis of the deposited data

Results flagged for a closer look

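Among 95 groups of 4 to 10 libraries, over 18 members and the core mean, 10 had a library that stood far from the others by Dixon's criterion, which chance gives in about 1 in 20 groups. In mutant VPA, replicate 5 was highest for Psmb1 at 385.1 CPM (the others 316 to 346) and for Psmb4 at 348.1 CPM (280 to 307), and replicate 2, with low Th, was lowest for Psmc6 at 143.8 CPM (168 to 181) and for the core mean, whose geometric mean level was 120.4 CPM (135 to 145). In wildtype VPA, replicate 3, also with low Th, was highest for Psmc1 at 253.9 CPM (236 to 243) and lowest for Psme4 at 17.12 CPM (22.7 to 28.1). In the same group replicate 5 was lowest for Psmb4 at 255.9 CPM (285 to 305) and replicate 6 for Psmd10 at 38.6 CPM (42.8 to 44.4). Psmb9 was lowest in wildtype ACY957 replicate 6 at 1.032 CPM (1.71 to 2.60). Psma8 was lowest in mutant ACY957 replicate 8 at 0.1477 CPM (0.377 to 0.737), a level of a few reads.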

How the results depend on the processing

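The count of members called was recomputed 464 times over the 14 comparisons, and 1 of these counts was not 0. This was the genotype comparison under VPA without wildtype VPA replicate 3, where 1 member (Psme4, adjusted p 0.0486) was called, so that this count ran from 0 to 1 over the libraries left out and from 0 to 0 in the other 13 comparisons. With all libraries 1% of all genes were called in that comparison, and without the 4 libraries with low Th 0 members were called. The adjusted p came closest to the threshold elsewhere at 0.0506, for the average over genotype labels, and at 0.0654, between the vehicles. The 41 fold changes with an unadjusted p under 0.05, or with the smallest p of their comparison, were recomputed 498 times: 496 kept their sign and 0 passed the threshold. These repeats left out single libraries only from the wildtype vehicle groups, so the call of Psme4 above is not among them. The VPA effect on Psme4 in mutant, -0.21 (SE 0.09) with all libraries, became 0.0011 without the 13 libraries whose clock output went against the genotype label, and that on Psmg1, 0.13 (SE 0.07) with all libraries, became -1e-04 without the 16 vehicle libraries with the mutant label and a mouse number of 48 or more. The cause was not tested, and both repeats hold fewer samples. No paired analysis was possible because the labels give no replicate numbers: the numbers used here follow accession order and name different mice. At these depths Psma8, Psmb9 and Psmc3ip, with 15.1 to 51.7 counts on average, limit what can be seen.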
